A study of Mus musculus with 3 samples.

Results

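Tubulin messenger RNA was followed in mouse RAW264.7 cells, an established macrophage line that forms osteoclasts when it is given the cytokine RANKL. The 10 genes described are 4 alpha tubulins (Tuba1a, Tuba1b, Tuba1c and Tuba4a), 5 beta tubulins (Tubb2a, Tubb2b, Tubb4b, Tubb5 and Tubb6) and the gamma tubulin Tubg1, out of 54532 genes in the deposited table. They were taken by name, and the family was chosen by the FPKM of 1 member, Tuba1a. That gene had been seen to be higher in the library named T1 than in the library without TSH, so that difference is given as a description. All cells were wild type and had received RANKL for 3 days. In 1 library, called the RANKL library, they received nothing more, and in the other 2 they then received 10 mU/mL of thyroid-stimulating hormone (TSH) for 2 h or for 24 h. The table names the columns of the TSH libraries T1 and T2, which does not say which is 2 h and which is 24 h, so they are called the T1 and the T2 library here.

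With 1 library per condition no difference could be set against a spread between replicates, and no test was made. RNA came from whole cultures of a single line, so a change in the proportion of a kind of cell and a change in RNA per cell cannot be told apart, nor can TSH and time in culture. Recovered reads summed to 16156926 in the RANKL library, 16809034 in T1 and 17390744 in T2. Intervals given with ratios are exact 95% counting intervals and cover counting error only. Levels are in FPKM, fragments per kilobase of the gene adjusted for depth. Of 8 osteoclast markers 7 averaged at least 1 FPKM, all but Calcr. The 5 neuron markers and the 5 osteoblast and fibroblast markers all averaged less than 1 FPKM, with Map2, Rbfox3, Dcx, Snap25, Col1a2 and Bglap at 0 reads in every library.

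Alpha and beta tubulin form the dimers from which microtubules are built, and gamma tubulin, held in a ring complex, nucleates them. Vertebrates carry several genes for each, whose proteins differ mainly in the acidic tail at the end of the chain, where enzymes add and remove modifications. Cells adjust the stability of tubulin mRNA to the amount of free dimer. In osteoclasts, microtubules control the podosomes that arrange into the sealing belt, and the beta isotype encoded by Tubb6 has been tied to microtubule and podosome dynamics in these cells.

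Tuba1a, Tuba1b and Tuba1c are close to identical in sequence, which bears on how far their reads can be told apart. Over the whole coding sequence Tuba1a matched Tuba1b at 98.3% of aligned positions, with 23 differences, and Tuba1c at 97.1%, with 39. Tuba1b matched Tuba1c at 97.9%. Tuba4a stood farther off, at 84.8% to 85.3% of the other alpha genes.

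The last 90 coding bases, which encode the tail and end in the stop codon, are shown for 4 of the beta genes because the tail is where isotypes are told apart and because Tubb2a and Tubb2b form the near-identical pair of this family. Capitals mark bases that differ from Tubb5, or have no partner in it, when the coding sequences are aligned. The line of Tubb5 starts at coding base 1246 and the others at 1249, so the lines do not match base for base. The positions are chr17:35834982-35835071 for Tubb5, chr13:34074468-34074557 for Tubb2a, chr13:34127471-34127560 for Tubb2b and chr2:25222308-25222397 for Tubb4b, all on the minus strand of GRCm38 and in exon 4 of 4.
Tubb5: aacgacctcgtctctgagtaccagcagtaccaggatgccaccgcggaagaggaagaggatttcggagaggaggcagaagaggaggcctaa
Tubb2a: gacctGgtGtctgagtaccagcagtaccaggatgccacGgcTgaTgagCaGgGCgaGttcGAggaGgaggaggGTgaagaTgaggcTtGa
Tubb2b: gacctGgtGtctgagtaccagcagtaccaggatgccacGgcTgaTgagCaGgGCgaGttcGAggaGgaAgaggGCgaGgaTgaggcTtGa
Tubb4b: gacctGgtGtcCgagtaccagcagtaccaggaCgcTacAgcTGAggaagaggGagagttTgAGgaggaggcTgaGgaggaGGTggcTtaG
Coding sequences of Tubb2a and Tubb2b matched at 96.5% of positions, with 47 differences. The other pairs of beta genes matched at 80.3% to 84.6%, and Tubb5 and Tubb6 were the pair farthest apart.

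How much of each gene is its own was measured by taking every window of 50 and of 100 bases of 1 transcript per gene and asking whether it also occurs, on either strand, in a gene elsewhere in the genome. Of the windows of 100 bases, 69.1% were shared for Tuba1b, 53.4% for Tuba1c and 50% for Tuba1a. For Tuba1a the shared windows all centred on the coding part, where they made up 62.8%, and none centred on the untranslated ends. Tuba1a shared 34.9% of its windows with Tuba1c and 26.3% with Tuba1b. Among the beta genes 36.9% were shared for Tubb2a, 27.7% for Tubb2b and 29.2% for Tubb4b, while Tubb5, Tubb6 and Tuba4a had 0 shared windows of this size. Tubg1 shared 4.11%, all with the second gamma tubulin gene Tubg2. With windows of 50 bases the shares were 82.2% for Tuba1b, 64.3% for Tuba1a, 61.0% for Tuba1c and at most 1.11% for Tuba4a, Tubb5 and Tubb6.

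**Figure D1:**
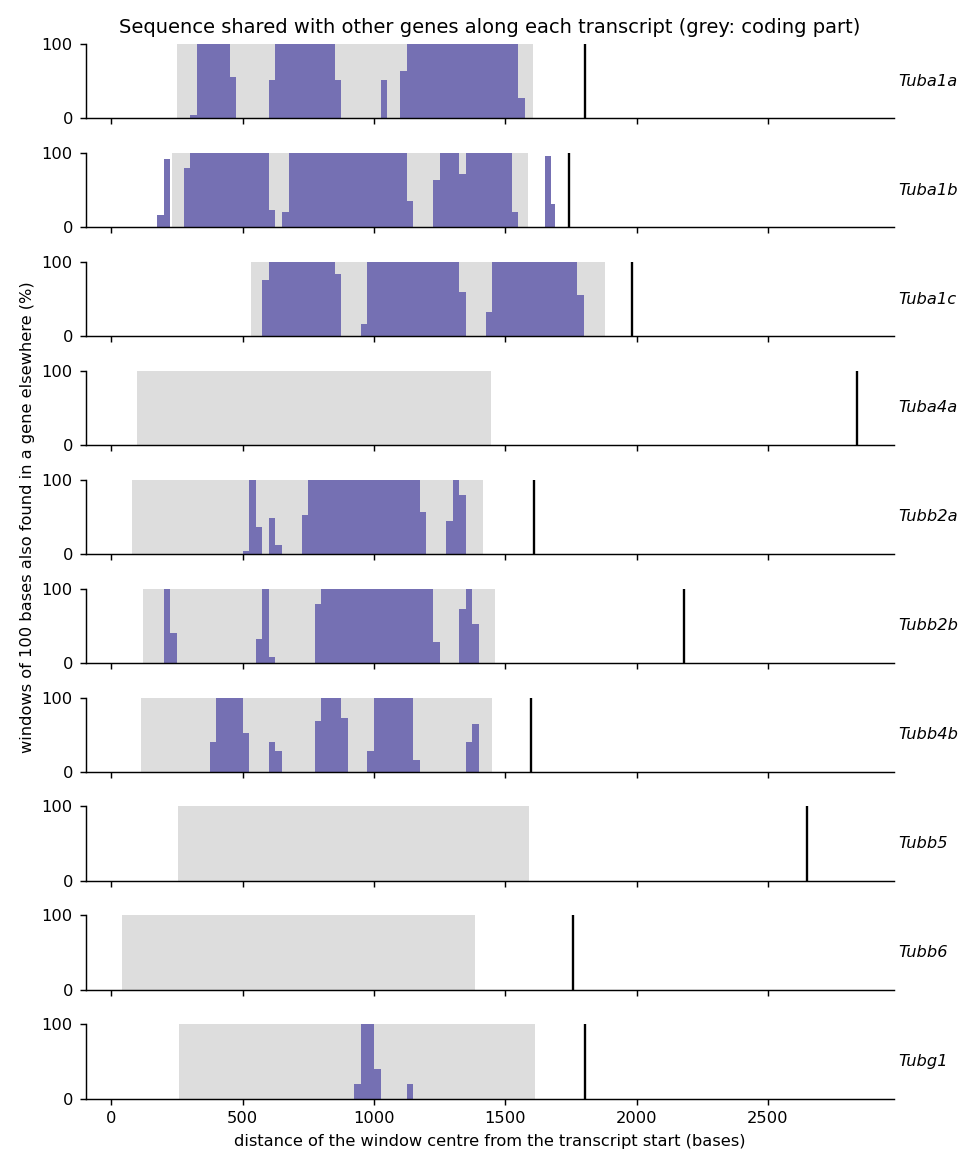
Percentage of 100-base windows that also occur in a gene elsewhere in the genome (vertical axis, 0 to 100%) along each tubulin transcript (horizontal axis, bases from the transcript start, bins averaged), with the coding part in grey and a black line at the transcript's end. Shared windows fill much of the coding part of Tuba1a, Tuba1b and Tuba1c, and Tuba4a, Tubb5 and Tubb6 show none.

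All 10 genes passed the minimum of a mean of 1 FPKM, and their levels ran from 2.06 FPKM to 404 FPKM. FPKM is per deposited gene length, which can exceed the length of 1 transcript. For Tubb5 that length was 3327 bases, against 2649 in the transcript used above, and for Tubb6 it was 1757 against 1758. Levels of genes that share sequence also depend on where shared reads were placed. Orders between genes are thus those of the deposited FPKM and could differ with another length. The order was the same in the 3 libraries: Tubb6, Tubb5, Tuba1b, Tuba1c, Tubb4b, Tuba4a, Tubg1, Tuba1a, Tubb2a and Tubb2b, from high to low. Of neighbours in that order only Tuba1a and Tubb2a in the RANKL library had overlapping 95% Poisson intervals, 4.90 to 6.68 FPKM and 4.18 to 5.94 FPKM. Tuba1a, the gene with the largest difference, was thus among the least abundant tubulins.

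**Figure D2:**
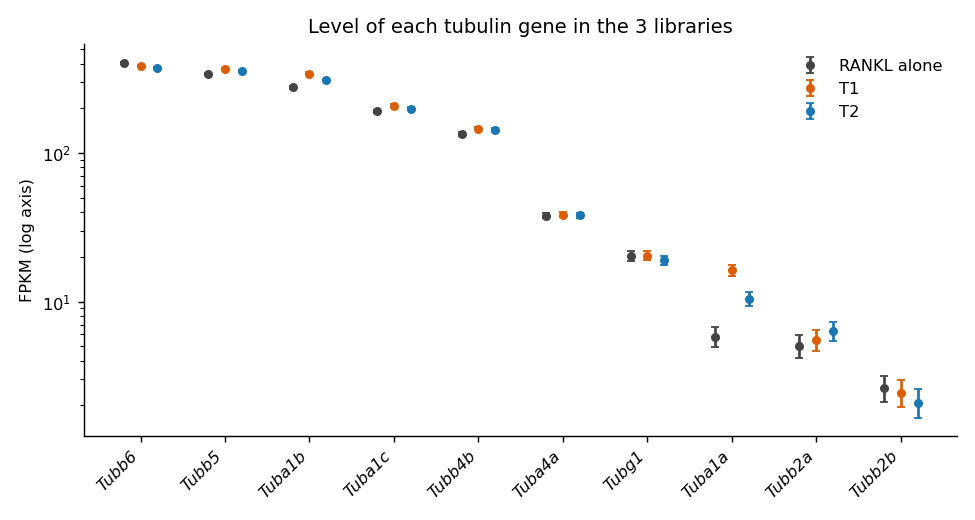
Level of each tubulin gene in FPKM (vertical log axis) in the RANKL library and in the T1 and T2 libraries, ordered from high to low, with bars for 95% Poisson counting intervals. Tubb6 lies highest at 404 FPKM in the RANKL library and Tubb2b lowest at 2.59 FPKM, and Tuba1a is the gene whose points are most spread.

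Among the alpha genes, Tuba1a (ENSMUSG00000072235, chr15:98949837-98953703, minus strand), best known as the main alpha tubulin of developing neurons, stood at 5.74 FPKM in the RANKL library, 16.2 in T1 and 10.3 in T2. These values rest on 167, 490 and 327 reads. T1 was thus the highest library, T2 lay between, and the RANKL library was lowest. The ratio to RANKL alone was 2.82 in T1 (interval 2.36 to 3.38) and 1.80 in T2 (1.49 to 2.18). Among 10231 genes with at least 100 reads and a mean of at least 1 FPKM, Tuba1a was number 8 from the highest change in T1 and number 13 in T2. These ranks only describe the gene, since its rise in T1 was the reason for the choice. The genes whose pair of changes lay nearest to that of Tuba1a, over 3 libraries, were mt-Co3, a mitochondrial subunit of cytochrome oxidase, at a distance of 0.09 in log2, and Rpl17-ps10 and Rpl27-ps3, named as copies of ribosomal protein genes, at 0.24 and 0.29. It shares 473 of its 1803 exonic bases with Gm49450, an annotated gene on the same strand that also runs over Tuba1b and held 2 reads in the RANKL library, 2 in T1 and 1 in T2.

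Tuba1b (chr15:98931425-98934565, minus strand), a widely expressed alpha tubulin, stood at 277 FPKM in the RANKL library, 342 in T1 and 311 in T2, from 8364, 10767 and 10210 reads. Its order of libraries was that of Tuba1a at a far higher level. The ratio to RANKL alone was 1.24 in T1 (1.20 to 1.27) and 1.12 in T2 (1.09 to 1.16). An antisense gene, Gm41396, covers 87 of its exonic bases and held 8, 3 and 2 reads.

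Tuba1c (chr15:99029891-99038110, plus strand), the third of the near-identical alpha genes, stood at 191 FPKM in the RANKL library, 209 in T1 and 199 in T2, from 7045, 8004 and 7988 reads. T1 was again the highest library, by a smaller margin. The ratio was 1.09 in T1 (1.06 to 1.13) and 1.04 in T2 (1.01 to 1.08).

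Tuba4a (chr1:75214228-75219865, minus strand), the alpha tubulin whose gene encodes no final tyrosine, stood at 38.0 FPKM in the RANKL library, 38.3 in T1 and 38.1 in T2. The libraries could not be told apart for this gene, with ratios of 1.01 in T1 (0.953 to 1.07) and 1.005 in T2 (0.949 to 1.06). Stk16, a kinase gene on the opposite strand with 494, 466 and 475 reads, covers 1379 of the 3701 exonic bases of Tuba4a, and how the counting treated strand is not given in the sources used here.

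Among the beta genes, Tubb6 (chr18:67390717-67402748, plus strand) is the isotype tied to osteoclast podosomes. It had the highest FPKM of the family, at 404 in the RANKL library, 384 in T1 and 374 in T2. It was the 1 abundant tubulin that was lower in both TSH libraries. The ratio was 0.950 in T1 (0.926 to 0.975) and 0.926 in T2 (0.902 to 0.950), from 11461, 11322 and 11527 reads. It has no near-identical copy and shares no window of either size with another gene.

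Tubb5 (chr17:35833921-35838306, minus strand), a beta tubulin of dividing and many other cells, stood at 341 FPKM in the RANKL library, 367 in T1 and 358 in T2. Its ratio was 1.08 in T1 (1.05 to 1.10) and 1.05 in T2 (1.03 to 1.07), from 18316, 20474 and 20860 reads. Tubb4b (chr2:25222160-25224702, minus strand), another widely expressed beta tubulin, stood at 135, 146 and 143 FPKM in the same order of libraries. Both were thus highest in T1 and lowest in the RANKL library, where Tubb6 was highest. The ratio of Tubb4b was 1.08 in T1 (1.04 to 1.13) and 1.06 in T2 (1.02 to 1.10).

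The near-identical pair Tubb2a (chr13:34074274-34078007) and Tubb2b (chr13:34126748-34130466), both on the minus strand and best known from neurons, was low in all libraries. Tubb2a stood at 5.01 FPKM in the RANKL library, 5.48 in T1 and 6.31 in T2, from 130, 148 and 178 reads. Tubb2b stood at 2.59, 2.42 and 2.06 FPKM, from 96, 93 and 83 reads. Tubb2a was highest and Tubb2b lowest in T2, but neither difference was detectable at this depth. The ratio in T2 was 1.26 for Tubb2a (0.9995 to 1.59) and 0.796 for Tubb2b (0.586 to 1.08), and in T1 1.09 (0.859 to 1.40) and 0.932 (0.693 to 1.25). Their summed reads, 226, 241 and 261, gave a ratio of 1.03 in T1 and 1.06 in T2, closer to 1 than those of either gene in T2.

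Tubg1 (chr11:101119938-101126419, plus strand), which encodes the gamma tubulin that nucleates microtubules, stood at 20.2 FPKM in the RANKL library, 20.4 in T1 and 18.9 in T2. The ratio was 1.01 in T1 (0.910 to 1.12) and 0.935 in T2 (0.844 to 1.04), so no difference was detectable at this depth.

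**Figure D3:**
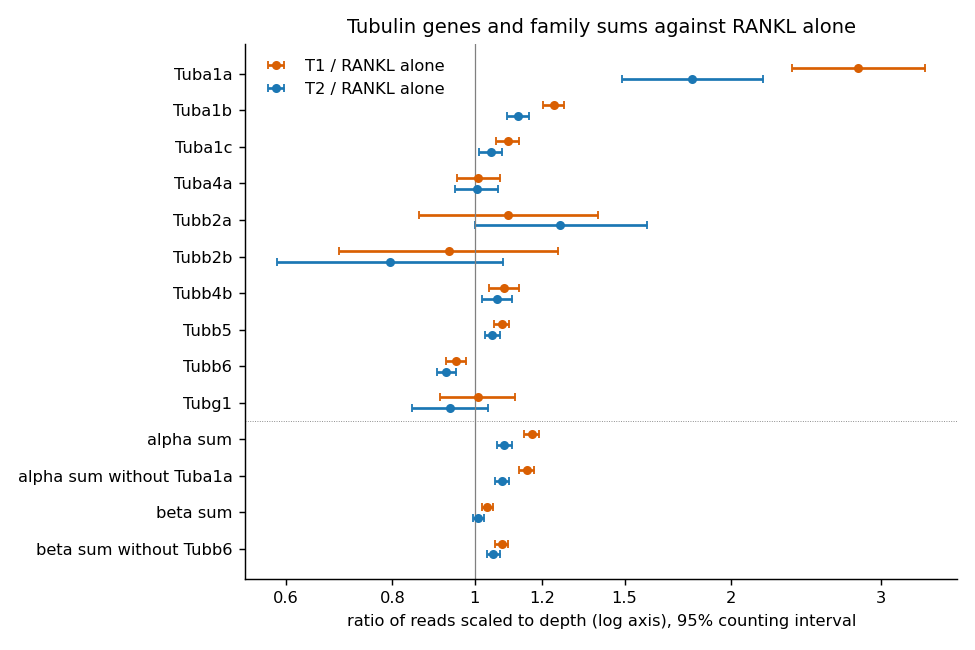
Ratio of reads scaled to depth (horizontal log axis) for T1 and T2, each against RANKL alone, for the 10 tubulin genes and for sums over the alpha and beta genes, with 95% counting intervals as bars. Tuba1a lies farthest to the right at 2.82 and 1.80, Tubb6 lies left of 1 in both, and the alpha sum lies at 1.17 and 1.08.

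Counted over the 10 genes, 8 were higher and 2 lower in T1 than in the RANKL library, or 6 and 4 with the libraries rescaled to the same FPKM total, which put Tuba4a and Tubg1 below 1. The interval left out 1 upward for 5 of them (Tuba1a, Tuba1b, Tuba1c, Tubb4b and Tubb5), where 10.8% of the 11069 genes past the minimum did so, and downward for 1 (Tubb6), where 12.2% did. Since the interval narrows with reads, genes with at least 10000 reads over the libraries are the closer background for the abundant tubulins, and 25.8% of those were higher and 27.2% lower. By size, 1 of the 10, Tuba1a, was past 2-fold on the log2(FPKM + 1) scale, at 1.35, where 1.04% of all genes were past it either way. That scale understates the change of low genes. The family was chosen because Tuba1a was higher in T1, so the place of Tuba1a in these counts was fixed beforehand. The median change of the 10 was 0.11 and that of all genes -0.0014.

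In T2, 7 tubulins were higher and 3 lower than in the RANKL library, and the comparison uses the same RANKL library as the one before. The interval left out 1 upward for the same 5 genes, against 10.2% of all genes and 19.9% of those with at least 10000 reads, and with the same FPKM total for Tubb2a as well. It left out 1 downward for Tubb6, against 13.2% and 35.6%. None was past 2-fold, with Tuba1a at 0.75, where 0.768% of all genes were past it. The median was 0.06 for the tubulins and -0.0018 for all genes.

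Between the TSH libraries, 9 tubulins were lower and 1, Tubb2a, was higher in T2 than in T1, and with the same FPKM total Tuba4a and Tubb4b turned higher. The interval left out 1 downward for 5 (Tuba1a, Tuba1b, Tuba1c, Tubb5 and Tubb6), against 10.1% of all genes and 31.9% of those with at least 10000 reads, and upward for 0, against 7.93%. With the same FPKM total it left out 1 for 2, Tuba1a and Tuba1b, and no longer for Tuba1c, Tubb5 and Tubb6. The ratio of T2 to T1 was 0.639 for Tuba1a (0.553 to 0.736), 0.907 for Tuba1b (0.883 to 0.932) and 0.955 for Tuba1c (0.926 to 0.985). The interval of Tubb6 ended just below 1, at 0.9999. None was past 2-fold, where 0.831% of all genes were, and Tuba1a had the largest difference of the 10, at -0.60 on the log2(FPKM + 1) scale.

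Each gene was then set against the summed reads of its family, since a sum does not depend on how reads were divided among the genes in it. The alpha genes together held 17842 reads in the RANKL library, 21640 in T1 and 20999 in T2. T1 was the highest library once scaled to depth, as for Tuba1a, but by much less: the ratio was 1.17 in T1 (1.14 to 1.19) and 1.08 in T2 (1.06 to 1.11). Without the reads counted for Tuba1a the alpha sum gave 1.15 (1.13 to 1.17) and 1.08 (1.05 to 1.10). Reads from sequence that Tuba1a shares may have been counted for Tuba1b or Tuba1c. Leaving out its count therefore cannot show what the sum would be without that gene.

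The beta genes together held 34547 reads in the RANKL library, 37153 in T1 and 37888 in T2. Their ratio was 1.03 in T1 (1.02 to 1.05) and 1.01 in T2 (0.995 to 1.02), closer to 1 than that of the alpha sum. Tubb6 lay on the other side of 1 from the rest of the beta sum. Leaving it out, a choice made after the values were seen, gave 1.08 (1.06 to 1.10) in T1 and 1.05 (1.03 to 1.07) in T2. The quotient of alpha reads to beta reads was 0.516 in the RANKL library, 0.582 in T1 and 0.554 in T2.

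Tuba1a took 0.936% of the alpha reads in the RANKL library (exact binomial 95% interval 0.800% to 1.09%), 2.26% in T1 (2.07% to 2.47%) and 1.56% in T2 (1.39% to 1.73%). These intervals, which cover counting error only, do not overlap. The family was chosen because Tuba1a was higher in T1, so its larger share there restates the choice. Tuba1a remained the smallest contributor of the 4 genes. Tuba1b took 46.9%, 49.8% and 48.6% of the alpha reads and Tuba1c 39.5%, 37.0% and 38.0%. Tuba1b thus took its largest share in T1, where Tuba1c took its smallest. Tuba4a took 12.7% of the alpha reads in the RANKL library, 11.0% in T1 and 11.8% in T2, beside a level of its own that was not detectably different. Among the beta reads, Tubb5 took 53.0%, 55.1% and 55.1% and Tubb6 33.2%, 30.5% and 30.4%.

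In reads, Tuba1a was a small part of the difference. T1 held 3090 more alpha reads than a ratio of 1 to RANKL alone would give, of which Tuba1b accounted for 67.0%, Tuba1c for 22.0%, Tuba1a for 10.2% and Tuba4a for 0.746%. The 316 reads by which Tuba1a exceeded a ratio of 1 were 1.46% of all alpha reads in T1. In T2 the gain was 1614 reads, divided in nearly the same way, with 69.6% from Tuba1b, 20.7% from Tuba1c and 9.02% from Tuba1a. Where the counting placed reads that fit several alpha genes is not given in the sources used here, and its part in the difference of Tuba1a was not tested.

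**Figure D4:**
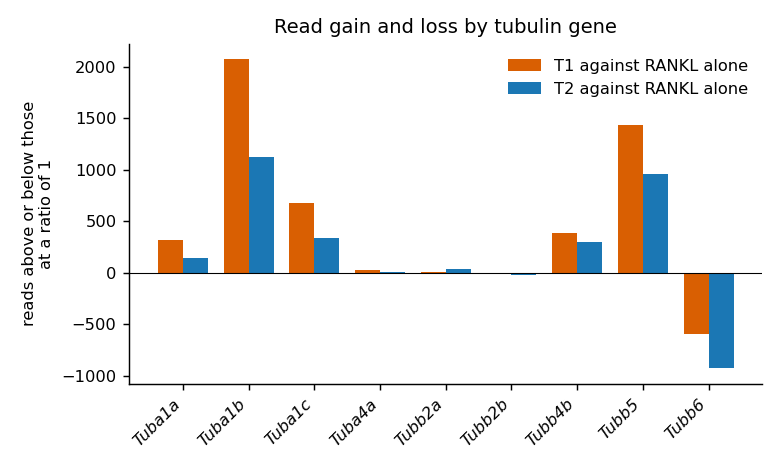
Reads above or below those that a ratio of 1 to RANKL alone would give (vertical axis, reads in the T1 or T2 library), for each alpha and beta tubulin gene. The bar of Tuba1b is the tallest at 2071 reads in T1, that of Tuba1a reaches 316 reads, and Tubb6 lies below 0 in both libraries.

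Near-identical copies, here genes whose transcripts match at 95% identity or more along 100 bases or more and along 50% or more of the shorter one, numbered 11 for Tuba1a, 10 for Tuba1b and 10 for Tuba1c, the other members of the trio included. Each of these counts includes Gm49450, which is no separate copy for Tuba1a and Tuba1b, since it runs over their exons. Tubb2b and Tubb4b had 2 each and Tubb2a had 1, while Tuba4a, Tubb5, Tubb6 and Tubg1 had 0. Most of the alpha copies are annotated as pseudogenes. Among them Gm3756, a processed pseudogene on chromosome 9, held by far the most reads, 627 in the RANKL library, 640 in T1 and 706 in T2, more than Tuba1a itself in each library. Unlike Tuba1a, its intervals included 1, with ratios of 0.982 in T1 (0.878 to 1.10) and 1.04 in T2 (0.929 to 1.16).

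Gm14150, a processed pseudogene on chromosome 2, came next with 37, 68 and 55 reads. Its ratio was 1.77 in T1 (1.17 to 2.71) and 1.37 in T2 (0.886 to 2.14), the order of libraries seen for Tuba1a. Gm17383 held 9, 14 and 21 reads, and the other alpha copies in the table held at most 19 reads in a library. The alpha copies together held 688, 764 and 799 reads, a ratio of 1.07 in both T1 (0.962 to 1.19) and T2 (0.964 to 1.19), and Gm3756 held most of these reads. Without it, a choice made after the values were seen, the copies held 61, 124 and 93 reads, a ratio of 1.96 in T1 (1.43 to 2.70) and 1.40 in T2 (1.01 to 1.97). Of these, Gm5620 with 7, 19 and 4 reads and Gm6682 with 2, 12 and 8 also had intervals above 1 in T1, and both were named after their values were seen. Adding all the copies to the alpha sum left it at 1.16 in T1 and 1.08 in T2. Tuba1a summed with all the copies, without Tuba1b and Tuba1c, held 855, 1254 and 1126 reads, a ratio of 1.41 in T1 (1.29 to 1.54) and 1.21 in T2 (1.11 to 1.33). Tubb4b-ps1 held 35, 41 and 33 reads, and the other beta copies in the table, Tubb2a-ps2 and Tubb4b-ps2, held 0 in every library.

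The 10 remaining tubulin genes were low or absent. Those restricted to other tissues, Tuba3b, Tuba8 and Tubal3, had 0 reads in every library, which allows up to 3 reads each, and Tuba3a and the neuronal Tubb3 had at most 1. The platelet isotype Tubb1 held 19, 14 and 12 reads and the second gamma gene Tubg2 held 2, 6 and 9. Of the 10, 3 passed the minimum level. Tubd1, the delta tubulin of centrioles, stood at 2.73 FPKM in the RANKL library, 4.005 in T1 and 3.45 in T2, with ratios of 1.47 (1.12 to 1.94) and 1.26 (0.957 to 1.67). Tubb4a stood at 1.22, 1.20 and 0.845 FPKM and the epsilon tubulin Tube1 at 0.965, 0.936 and 1.10 FPKM, and for both the intervals included 1 in T1 and in T2.

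Genes that fold tubulin were close to level. Of 20 (the cofactors Tbca to Tbce with Arl2, the chaperonin CCT and prefoldin), 12 were higher and 8 lower in T1, or 8 and 12 with the same FPKM total. The median in T1 was 0.02, and 4 genes were higher beyond counting error, where 10.8% of all genes were. These 4 (Tcp1, Cct3, Cct5 and Cct7) each held at least 10000 reads, and of such genes 25.8% were higher. In T2 10 were higher and 10 lower, with a median of 0.01. Cct7, a chaperonin subunit, stood at 63.5 FPKM in the RANKL library, 69.5 in T1 and 65.2 in T2, and its ratio in T1 was 1.09 (1.06 to 1.13). Arl2, the small GTPase that works with the cofactors, stood at 9.78, 11.1 and 11.1 FPKM. Vbp1, a prefoldin subunit, stood at 18.9, 17.1 and 18.5 FPKM with intervals that included 1.

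Of the 3 genes of tubulin mRNA autoregulation, 1, Ttc5, was lower in T2 beyond counting error, where 13.2% of all genes were. Its protein recognises nascent tubulin chains and starts the decay of their mRNA. Ttc5 stood at 8.39 FPKM in the RANKL library, 7.57 in T1 and 6.91 in T2, from 550, 516 and 492 reads. The ratio was 0.902 in T1 (0.799 to 1.02) and 0.823 in T2 (0.728 to 0.932). It was lowest in T2, where 6 of the 10 tubulins lay between the other libraries, and a link between them was not tested. Scaper and Cnot11, which link that protein to the deadenylase, had intervals that included 1 in both.

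Of 13 genes that modify tubulin 12 passed the minimum, with medians of 0.01 in T1, or -0.02 with the same FPKM total, and -0.04 in T2. Ttl, the ligase that puts back the final tyrosine of alpha tubulin, stood at 6.01, 5.16 and 5.73 FPKM, with a ratio of 0.858 in T1 (0.761 to 0.968). Svbp and Vash2, partners in removing that tyrosine, had ratios in T1 of 1.29 (0.982 to 1.69) and 0.769 (0.556 to 1.06). Of 9 genes of the gamma tubulin ring complex 7 were higher and 2 lower in T1 (6 and 3 with the same FPKM total), with a median of 0.04. The small ring subunits Mzt2 and Mzt1 lay on either side of 1 in T1, with ratios of 1.18 (0.982 to 1.41) and 0.867 (0.789 to 0.953). Tubgcp4, a subunit of the ring, was at 1.12 (1.002 to 1.25). The same FPKM total shifts log2 ratios in T1 by -0.026, which would put the lower end for Tubgcp4 below 1. Beyond counting error 1 of the 9 was higher and 1 lower in T1, where 10.8% and 12.2% of all genes were.

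Of 19 genes for microtubule-associated proteins 17 passed the minimum, of which 6 were higher and 11 lower in T1. Beyond counting error 6 were lower and 0 higher, where 12.2% of all genes were lower and 10.8% higher. Of genes with at least 10000 reads, such as Macf1, 27.2% were lower and 25.8% higher in T1. In T2 7 of the 17 were higher and 10 lower, with 2 higher and 3 lower beyond counting error. Of all genes 10.2% were higher and 13.2% lower in T2, and of those with at least 10000 reads 19.9% and 35.6%. Macf1, which links microtubules to actin, stood at 22.6 FPKM in the RANKL library, 20.6 in T1 and 20.3 in T2, with ratios of 0.909 (0.886 to 0.934) and 0.897 (0.873 to 0.920). The kinesin gene Kif2c, whose product takes microtubule ends apart, had a ratio of 1.12 in T2 (1.03 to 1.22).

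Most spindle genes were slightly higher in both TSH libraries. Of 21 past the minimum 21 were higher in T1 (20 with the same FPKM total) and 18 in T2 (19), with medians of 0.11 and 0.10. Beyond counting error 8 were higher in T1 and 9 in T2, where 10.8% and 10.2% of all genes were. Aurkb, a mitotic kinase, stood at 21.1, 24.6 and 28.3 FPKM, Kif4, a chromosome kinesin, at 8.05, 9.37 and 9.89 FPKM, and Haus2, an augmin subunit, at 6.05, 7.04 and 7.36 FPKM. Between T2 and T1 the list was level, with 13 genes higher, 8 lower and a median of 0.01. Beyond counting error 1 was higher and 2 were lower in T2, where 7.93% and 10.1% of all genes were. The earlier results of these data were known when the list was chosen, so its direction is no independent evidence.

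**Figure D5:**
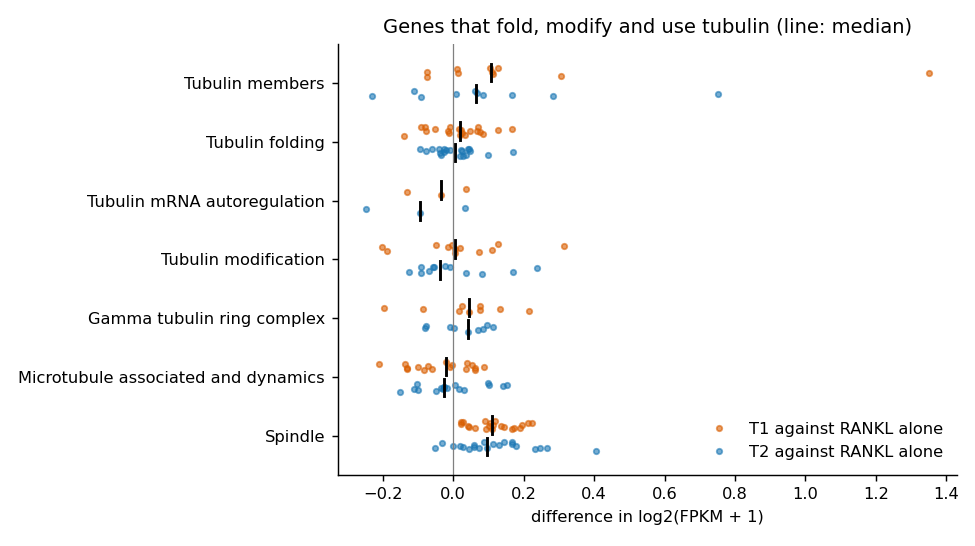
Difference in log2(FPKM + 1) from RANKL alone (horizontal axis) for each gene past the minimum in the T1 and T2 libraries, by group of genes, with a black line at each group's median. Tuba1a is the point at 1.35, the medians of the folding and modifying genes lie near 0, and those of the tubulins and of the spindle genes lie above 0.

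Markers of cell state also differed between the libraries. All 4 proliferation markers (Mki67, Top2a, Ccnb1 and Cdk1) were higher beyond counting error in both TSH libraries, where 10.8% of all genes were in T1 and 10.2% in T2. Mki67 and Top2a held at least 10000 reads, and of such genes 25.8% and 19.9% were higher. The markers' summed level was 175 FPKM in the RANKL library, 192 in T1 and 192 in T2. The summed level of the 7 osteoclast markers past the minimum was 3056, 2541 and 2465 FPKM, with 6 of 7 lower in T1 and 7 of 7 in T2. Beyond counting error 4 were lower and 1 higher in T1, and 7 were lower in T2. Of all genes 12.2% were lower and 10.8% higher in T1, and 13.2% were lower in T2. Among genes with at least 10000 reads these shares were 27.2%, 25.8% and 35.6%. The summed level of the 5 macrophage markers, most of it from Cd68 and Csf1r, was 1163, 1146 and 1144 FPKM. In T1 those 2 were lower and Adgre1, Itgam and Lyz2 higher, all beyond counting error. Of all genes 12.2% were lower and 10.8% higher in T1, and of those with at least 10000 reads 27.2% and 25.8%. The macrophage markers thus went both ways. The median of the 5 in T1 was 0.11, and the ratio was 1.41 for Adgre1 (1.08 to 1.85) and 1.52 for Itgam (1.15 to 2.01). In T2 2 of the 5 were higher and 3 lower, with a median of -0.07. The part of these differences in the tubulin values was not tested.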

How the data were processed

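RNA was measured in 3 libraries, 1 per condition, prepared with a SMARTer mRNA kit, per the labels' protocols. The submitters' processing notes name the builds GRCm38 and mm10, 1 assembly under both names. Not given in the sources used here are aligner and counter, and how they treated strand and reads that fit several genes. Per gene, the authors deposited FPKM and a gene length, and 0 columns of other samples were left unused.

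Multiplied by gene length, the FPKM of a library came in whole steps of 1 size (100% of values above 0 within 0.01), which gave the reads. The depth that the step implies equals, within 1e-09, the median-of-ratios size factors computed from the reads of 16472 genes with reads in all libraries, and differs from the summed reads by -0.177%, -0.241% and 0.763%. The deposited FPKM thus hold that scaling already. A count of 0 allows up to 3 reads. PCR copies are not independent molecules, so intervals cover counting error only.

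Changes were taken as log2 of (deposited FPKM + 1) over the 11069 genes whose mean was 1 FPKM or more and called past 2-fold. Ratios are of reads scaled to depth, with exact conditional (Clopper-Pearson) 95% intervals, and "beyond counting error" means that the interval leaves out 1. It compares the libraries, not the conditions. The members and lists were chosen with earlier results of these data known. Named are the 10 members, the other tubulins, up to 3 genes per list with the largest change, the copies with most reads and the 3 genes nearest to Tuba1a. Some alpha tubulin sequences and 1 gene that this rule names are not reported here. Alternatives were pseudocounts of 0.1 and 5, no minimum, a mean of at least 5 FPKM, a fold of 1.5, other scalings, sums of FPKM, and sums with copies or without Tuba1a, Tubb6 or Gm3756.

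Sequences, exons and copies come from GENCODE release M21 on GRCm38, in which 9 of 10 members have the start and end of the deposited table, all but Tubb6. The authors' own release is not given here. The functions were tested on simulated data. Software was BLAST+ 2.17.0 and Python 3.11.15 with Biopython 1.88, matplotlib 3.10.9, scipy 1.17.1, pandas 2.3.3 and numpy 2.4.6.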

Additional observations from a re-analysis of the deposited data

How the results depend on the processing

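With 1 library per condition no library could be left out. No paired analysis was possible because each condition has 1 library and the result comes from no test. Values are log2. With a pseudocount of 5, 0 tubulins were past 2-fold in T1 (Tuba1a at 0.98, against 1.35). With a fold of 1.5, Tuba1a was past it in T2 against RANKL alone (1 tubulin) and in T2 against T1 (1 tubulin). The beta sum depended on scaling and on Tubb6. In T1 it was 0.05, against 0.023 with libraries rescaled to the same FPKM total, 0.027 as a sum of FPKM and 0.11 without Tubb6, an alternative chosen after seeing the data. In T2 it was 0.01, against 0.072 without Tubb6 and -0.0074 as a sum of FPKM. In T2 against T1 the beta sum was -0.04 and the alpha sum -0.11, and rescaling to the same total gave -0.0022 and -0.074. The same rescaling left 6 tubulins higher and 4 lower in T1, with Tuba4a and Tubg1 below 1, and made Tuba4a and Tubb4b higher in T2 than in T1. In T2 against T1 it also left 2 tubulins lower beyond counting error in place of 5, with Tubb5 at -0.0035. Scaling to the summed reads, added after seeing the data, left 3 and turned the direction of Tuba4a alone. In T2 against RANKL alone both scalings brought Tubb2a beyond counting error, 6 genes in place of 5. Median-of-ratios scaling changed nothing, by construction. Of 150 values of single tubulins 148 stayed within their counting interval. The 150 include those of median-of-ratios scaling, which could not move, and staying within the interval allows a change of direction. Depth limits Tubb2a and Tubb2b most, with at most 178 reads in a library.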
